A study of Mus musculus with 4 samples.

Results

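The *Sst*-negative interneurons of the medial ganglionic eminence (MGE) described here were single nuclei from the medial neocortex of mouse embryos at E16.5, chosen by their raw transcript counts. A nucleus with 1500 to 60000 transcripts was taken when it held at least 2 transcripts of *Lhx6*, at least 2 of *Gad1* and *Gad2* together, none of *Sst*, at most 1 of *Ebf1* and at most 1 of *Mki67* and *Top2a* together. The rule was met by 1639 of 29656 nuclei in that range and of 4105 nuclei with at least 2 *Gad1* and *Gad2* transcripts, which leaves 2466 other *Gad* nuclei (the rest). *Sst* encodes the neuropeptide somatostatin, *Gad1* and *Gad2* the enzymes that make GABA, *Ebf1* marks striatal precursors, and *Mki67* and *Top2a* mark dividing cells. An *Sst* count of 0 describes what was captured from a nucleus and does not show that the cell lacked the transcript.

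The series held 4 single-nucleus RNA libraries, with 2 embryos per genotype. Controls were *Sst-Cre/tdTomato* mice and knockouts were *Sst-Cre/tdTomato/Dnmt1 loxP2* mice (*Dnmt1* KO), so the Cre driver and the tdTomato reporter were shared by both groups. *Dnmt1* encodes the methyltransferase that keeps DNA methylation in place, and its deletion here depended on Cre expressed from *Sst*. The nuclei described had no *Sst* transcript, and whether a given nucleus or its precursor had recombined was not analysed here. The study asked how deleting *Dnmt1* in *Sst* interneurons acts on these cells and on the surrounding cortex, and the genotype comparison below asks it of *Lhx6* nuclei that carried no *Sst* transcript.

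MGE interneurons are born in the ventral forebrain and migrate tangentially into the cortex, where most of them become parvalbumin or somatostatin interneurons. LHX6 is the transcription factor that holds MGE identity after NKX2-1 is switched off, and SOX6 and SATB1 act downstream of it. MAF takes part in the generation of these interneurons, and MEF2C is required for parvalbumin interneurons. Parvalbumin itself appears only after birth in the mouse, so embryonic precursors have to be recognised by other genes.

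The 4 libraries contributed unequally. *Dnmt1* KO replicates 1 and 2 held 206 and 676 of the *Sst*-negative MGE nuclei, and control replicates 1 and 2 held 429 and 328. Their median transcripts per nucleus were 11746.5, 10108, 10651 and 17049.5 in the same order, so control replicate 2 was the deepest. That library was also the only one of batch 2, and it was built from 2 sublibraries where the others were built from 8. No cell barcode was shared between libraries. A simulation-based doublet caller marked 7.77%, 10.9%, 5.13% and 14.6% of the chosen nuclei in the 2 KO and then the 2 control libraries, and 9.71%, 14.2%, 11.0% and 25.6% held more than 2 transcripts of a set of excitatory genes, among them *Neurod2*, *Neurod6*, *Tbr1*, *Slc17a7* and *Eomes*. The share with excitatory transcripts was highest in the deepest library. Values below are in the order KO replicate 1, KO replicate 2, control replicate 1, control replicate 2 wherever 4 are given.

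The genes given as marks of the population were present. *Nxph1* (neurexophilin, a secreted ligand of neurexins, GRCm39 chr6:8948431-9249616, plus strand) was found in 99.5%, 99.1%, 99.0% and 99.7% of the nuclei after each was thinned to 5000 transcripts, while excitatory nuclei without *Gad* transcripts had it in 3.23% to 5.74%. *Maf* (chr8:116409632-116434579, minus strand) was found in 76.1%, 75.5%, 75.7% and 81.9% of the thinned nuclei and in 0.208% to 0.957% of excitatory nuclei. Unthinned, *Maf* was found in 92.7%, 91.3%, 91.1% and 97.3% and *Nxph1* in 98.8% or more. Thus *Nxph1* and *Maf* lay far above their shares in excitatory nuclei, whose median depth of 16075 to 26229 transcripts was greater. Whether free RNA set the shares in excitatory nuclei was not tested. *Nkx2-1*, the MGE progenitor gene, stood at 0.36, 0.344, 4.16 and 0.148 CPM (counts scaled to a common total per library), and *Lhx8* was listed at 0 in 3 libraries and at 1.51 CPM in control replicate 1. Both genes are therefore nearly absent, and the label rests on *Lhx6*, *Nxph1* and *Maf* more than on *Erbb4*, which other *Gad* nuclei also carried at high levels (below). *Pvalb* stood at 0, 0.344, 0 and 0 CPM and *Pthlh* at 0 in all 4 libraries. Markers of oligodendrocyte precursors, microglia, endothelium and meninges summed to at most 8.37 CPM per list in any library, with between 0 and 4 genes of each list at 0. Radial glia markers summed to 60.5 to 97.4 CPM, against 237 to 835 CPM in the other *Gad* nuclei. Cajal-Retzius markers summed to 136, 107, 108 and 134 CPM, above the 84.0, 65.8, 75.3 and 39.7 CPM of the other *Gad* nuclei in each library, and *Cacna2d2* alone stood at 136, 95.8, 102 and 128 CPM of it. The 12 excitatory markers were all detected and summed to 1355 to 1964 CPM, against 2051 to 2876 CPM in the other *Gad* nuclei.

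The members were compared with the other *Gad* nuclei as sums per library. These values are a description without a test, because the rule that chose the members used the same nuclei and several correlated genes. Ratios were taken on log2(CPM + 5) within each library, and SD is over the 4 libraries. With that rule 24 of 8370 genes (0.287%) were at least 2-fold higher in all 4 libraries and 282 (3.37%) at least 2-fold lower. The median ratio over all genes was −0.11.

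*Sst*-negative MGE nuclei carried more *Maf*, *Mef2c*, *Nxph1*, *Cux2* and *Satb1* than the rest, and far less of the caudal ganglionic eminence (CGE) genes *Adarb2* and *Prox1* and of the striatal gene *Meis2*. *Nxph1* stood at 8057, 7874, 8165 and 6648 CPM against 3230, 3080, 1596 and 2089 CPM in the rest, a mean log2 ratio of 1.67 ± 0.48. *Maf* stood at 311, 300, 360 and 386 CPM against 142, 129, 77.7 and 155 CPM, a mean log2 ratio of 1.43 ± 0.48. For both genes the lowest member value lay above the highest value of the rest. *Mef2c* (chr13:83652064-83815555, plus strand) stood at 1632, 1687, 1332 and 1566 CPM against 546, 814, 520 and 587 CPM, with a mean log2 ratio of 1.34 ± 0.22. *Erbb4* (chr1:68071345-69147619, minus strand), the neuregulin receptor that guides migrating interneurons, stood at 17450, 19265, 20999 and 15170 CPM against 9782, 12370, 6958 and 10886 CPM. Its ratio of 0.89 ± 0.49 exceeded 2-fold in 1 library, control replicate 1, whose rest was the one with the most *Ebf1* nuclei.

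**Figure D1:**
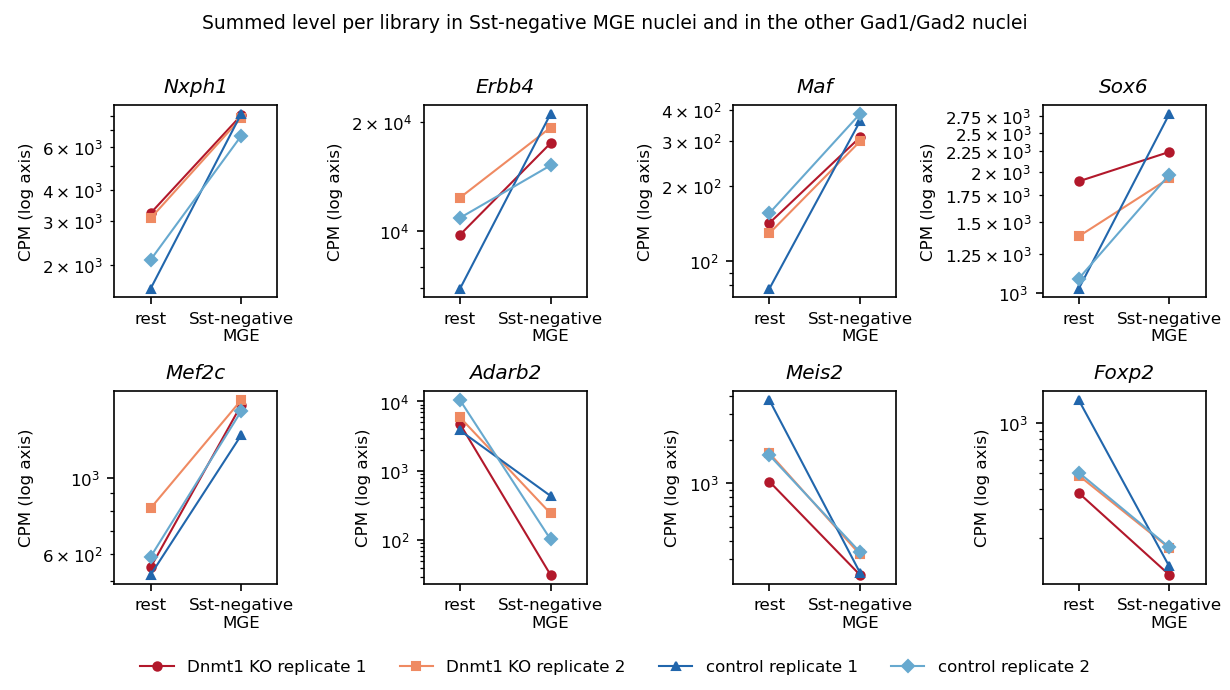
Summed level (CPM, log axis) of marker genes in the rest and in the Sst-negative MGE nuclei, with 1 line per library joining both populations. The line for Nxph1, Maf and Mef2c rises in each of the 4 libraries. The values of the rest spread more between libraries than those of the members, except for Adarb2, where the members spread more.

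Among 19 MGE and interneuron transcription factors, 3 were at least 2-fold higher in all 4 libraries (*Maf*, *Mef2c* and *Cux2*) and 2 at least 2-fold lower (*Zfhx3* and *Zfhx4*), with a median ratio of 0.47. *Satb1* stood at 577, 465, 466 and 515 CPM against 295, 215, 150 and 206 CPM and passed 2-fold in 3 of 4 libraries. *Sox6* stood at 2237, 1925, 2780 and 1965 CPM against 1892, 1381, 1024 and 1085 CPM, a smaller ratio of 0.75 ± 0.52. The homeobox genes *Dlx1*, *Dlx2*, *Dlx5* and *Dlx6*, which GABAergic precursors of all ganglionic eminences share, had mean ratios between −0.36 and 0.24.

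Of the genes that mark the parvalbumin lineage later in life, *Kcnc2*, which encodes the fast potassium channel subunit Kv3.2, stood at 1348, 1494, 1359 and 1478 CPM against 617, 832, 356 and 758 CPM, and it was as high in the *Sst*-positive nuclei described below. Of 9 genes of that list with enough transcripts, 1 (*Mef2c*) was at least 2-fold higher in all 4 libraries, with a median ratio of 0.41. Of 7 somatostatin-lineage genes other than *Sst*, 0 were at least 2-fold apart in all 4 libraries. *Npy*, a neuropeptide of some somatostatin cells, stood at 8.64, 14.2, 15.3 and 10.5 CPM against 5.42, 9.31, 6.67 and 12.3 CPM, which overlap. *Elfn1*, a postsynaptic adhesion protein of somatostatin cells in the adult, stood at 220, 138, 152 and 211 CPM against 98.0, 68.6, 34.8 and 129 CPM. Genes of both later lineages were therefore present in the same nuclei pool.

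Among migration genes, *Ackr3*, the scavenger receptor for CXCL12, stood at 107, 86.8, 159 and 115 CPM against 55.1, 30.2, 27.2 and 25.3 CPM. Its partner *Cxcr4* stood at 18.0, 20.2, 29.1 and 39.0 CPM against 14.5, 12.9, 8.65 and 26.1 CPM. *Slit1*, a repellent ligand, ran the other way, at 54.7, 59.1, 52.2 and 50.5 CPM against 106, 179, 194 and 222 CPM. Over 32 migration and guidance genes, 0 were at least 2-fold higher and 1 at least 2-fold lower in all 4 libraries, with a median of 0.06. Of 21 synaptic adhesion genes, 2 were at least 2-fold higher in all 4 libraries, and both were neurexophilins. *Nxph2* stood at 420, 402, 354 and 344 CPM against 149, 122, 74.1 and 64.5 CPM. Over 14 genes of GABA transport and reception, 0 reached 2-fold in all 4 libraries in either direction, and their median was 0.33.

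The genes furthest above the rest in their least extreme library, beside those named, included *Cacng3*, an auxiliary subunit of AMPA receptors, with a mean log2 ratio of 1.77 ± 0.40, and *Gria1*, an AMPA receptor subunit, with 1.54 ± 0.31. *Kcnmb2*, a subunit of calcium-activated potassium channels, had 1.64 ± 0.33 and *Dpp10*, an auxiliary subunit of Kv4 channels, 1.54 ± 0.30. *Dlgap1*, a postsynaptic scaffold, and *Rph3a*, a vesicle protein, had 1.43 ± 0.35 and 1.32 ± 0.15. *Ptchd4*, *Rps6ka5*, *Ptprt*, *Cntnap3* and *Tshz3* completed the 15 genes, with mean ratios between 1.20 and 1.51.

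CGE genes were low in the members. *Adarb2* stood at 31.7, 243, 436 and 103 CPM against 4740, 5899, 3827 and 10462 CPM in the rest, with a mean log2 ratio of −5.33 ± 1.82. In thinned nuclei, *Adarb2* was found in 9.95%, 11.0%, 14.5% and 6.13% of members and in 8.12%, 12.6%, 13.1% and 8.85% of excitatory nuclei, so both shares were similar. Its mean was 0.194, 0.672, 1.10 and 0.426 transcripts per thinned member, and 3.48%, 4.29%, 5.90% and 1.53% of members held 2 or more, so most of its transcripts lay in a few members. Without thinning it was found in 17.5%, 21.0%, 21.9% and 13.7% of members. *Prox1*, a CGE transcription factor, stood at 3.24, 6.997, 17.2 and 4.28 CPM against 101, 88.8, 58.5 and 126 CPM. Of 7 CGE genes, 3 (*Adarb2*, *Prox1* and *Sp8*) were at least 2-fold lower in all 4 libraries, with a median of −1.17. Of 8 genes of the lateral ganglionic eminence and striatum, 2 were, and both are transcription factors. *Meis2* stood at 235, 325, 244 and 337 CPM against 1029, 1613, 3737 and 1564 CPM, and *Foxp2* at 120, 175, 135 and 177 CPM against 378, 482, 1383 and 502 CPM. Also furthest below the rest were *Lockd*, *Kif15*, *Kif11*, *Kif4*, *Cenpe*, *Pbx3* and *Zfhx3*, and the first 5 of these are cell cycle genes or the neighbour of one, which the limit on *Mki67* and *Top2a* bears on.

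**Figure D2:**
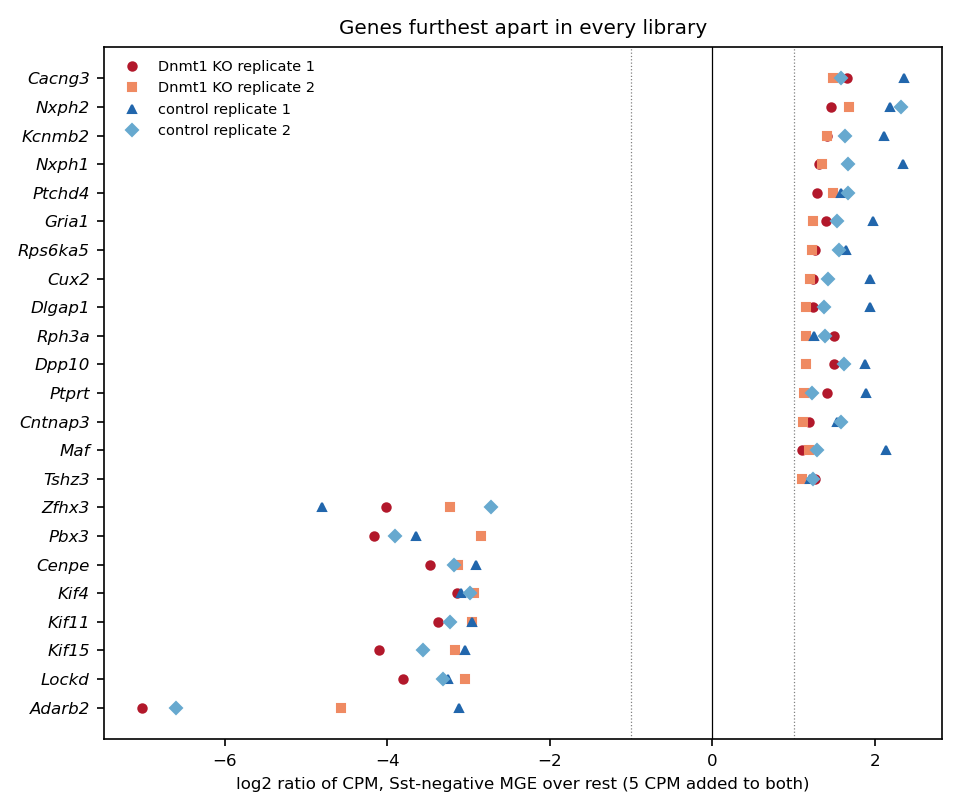
Log2 ratio of CPM (5 CPM added to both) of members over the rest, with 1 point per library, for the 15 genes highest and the 8 lowest in their least extreme library. The higher genes lie between 1.10 and 2.36, and Adarb2 between −7.02 and −3.12.

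At the edge of the rule the nuclei resembled the members. Nuclei with 1 *Lhx6* transcript that met every other limit numbered 27, 149, 92 and 3, and those with 2 *Lhx6* transcripts, just inside, numbered 38, 178, 82 and 22. *Nxph1* stood at 8159, 7229, 8222 and 10343 CPM just outside and at 8704, 8848, 7791 and 7799 CPM just inside. With no *Lhx6* transcript and the other limits kept, *Nxph1* stood at 1551, 1547, 648 and 423 CPM. *Erbb4* in those nuclei stood at 11792, 16112, 8960 and 15466 CPM, which in control replicate 2 was above the members. *Maf* stood at 366, 273, 340 and 577 CPM just outside and at 340, 334, 402 and 355 CPM just inside. The nuclei with 1 *Lhx6* transcript therefore lay close to those just inside for *Nxph1* and *Maf*, and they are counted in the rest.

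Nuclei under the same limits but with 1 or more *Sst* transcripts numbered 12, 86, 25 and 23. In them *Erbb4* stood at 9443, 12381, 11099 and 8940 CPM and *Mef2c* at 665, 1058, 923 and 721 CPM, below every member value given above for the same genes. *Npy* stood at 22.2, 53.9, 89.6 and 50.5 CPM, above every member value. *Satb1* stood at 1341, 643, 771 and 600 CPM, *Sox6* at 3364, 3016, 2933 and 2145 CPM and *Elfn1* at 477, 285, 195 and 463 CPM, each higher than in the members of the same library. *Nxph1* stood at 8490, 7665, 7298 and 6015 CPM, close to the members (mean log2 ratio of members over *Sst*-positive nuclei 0.07). *Kcnc2* stood at 1324, 1568, 1405 and 1570 CPM, higher in the members of 1 of 4 libraries (−0.04), and *Cux2* at 1380, 1025, 1241 and 1995 CPM, higher in the members of 3 (0.22). The higher *Satb1*, *Nxph1*, *Kcnc2* and *Cux2* of members against the rest thus did not set them apart from *Sst*-positive nuclei, while *Maf* had a mean ratio of 0.41 that ran from 0.00 to 1.03. These differences are a description on few nuclei, and *Sst* itself set the groups.

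*Mef2c* and *Maf* were then used to describe variation among the members, on counts thinned to 5000 transcripts, which 201, 653, 407 and 326 nuclei reached (5, 23, 22 and 2 shallower nuclei were left out). *Mef2c* was found in 95.02%, 95.6%, 89.4% and 95.7% of them, and in 98.1%, 97.3%, 93.01% and 97.9% without thinning. Excitatory nuclei also express it, and had it in 48.5%, 64.4%, 63.5% and 66.0%. The mean number of *Mef2c* transcripts was 8.88, 9.04, 6.78 and 8.41 per nucleus and the highest was 31, 35, 32 and 37. *Mef2c* varied widely between nuclei, with a variance 4.44 to 4.95 times its mean in the 4 libraries. *Maf* had means of 1.76, 1.81, 1.92 and 2.22 transcripts per nucleus and a variance 1.47 to 1.76 times its mean, so its spread was closer to that of counting. This ratio grows with a gene's mean, which was lower for *Maf*, so it does not show that *Maf* varied less between nuclei than *Mef2c*.

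**Figure D3:**
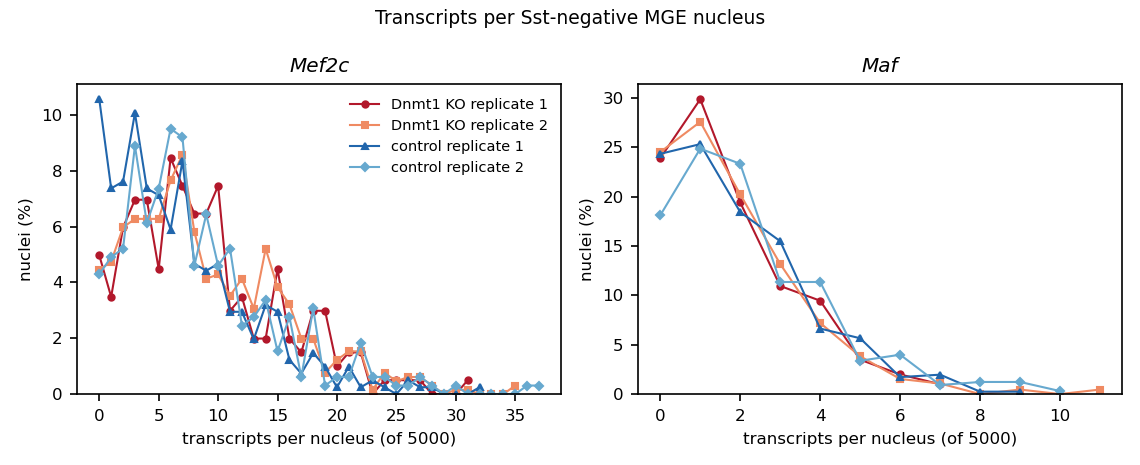
Share of Sst-negative MGE nuclei (%) by the number of Mef2c (left) and Maf (right) transcripts among 5000, with 1 line per library. Mef2c runs from 0 to 37 transcripts with 1 broad distribution in each library, and Maf lies mostly at 0 to 5.

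*Mef2c* and *Maf* were found together in 72.6%, 72.4%, 69.0% and 78.2% of nuclei, where the product of their separate shares was 72.3%, 72.1%, 67.7% and 78.4%. As nearly all nuclei had *Mef2c*, the joint share was almost fixed by the separate shares and says little on co-occurrence. Nuclei with neither were 1.49%, 1.38%, 3.93% and 0.613%.

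Few members lacked *Mef2c* (10, 29, 43 and 14 nuclei), so the split of *Mef2c*-positive against *Mef2c*-negative nuclei rests on small sums. Of 5964 genes, 1 (0.0168%) was at least 2-fold higher with *Mef2c* in all 4 libraries and 0 were lower. After nuclei with over 2 excitatory transcripts were left out, 0 genes were at least 2-fold higher in all 4 libraries.

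A split at each library's median, chosen after seeing how few members lacked *Mef2c*, gave groups of 90 and 111, 325 and 328, 203 and 204, and 145 and 181 nuclei (above against at or below the median). *Mef2c*-rich nuclei carried more *Pdzrn4*, *Adamts17*, *Cadps2* and *Nxph2*, and less *Trpm3* and *Grin3a*. Of 5680 genes, 0 were at least 2-fold higher and 2 (0.0352%) at least 2-fold lower in all 4 libraries. *Cadps2*, which takes part in the release of dense-core vesicles, stood at 107, 200, 212 and 121 CPM against 34.2, 127, 53.9 and 36.5 CPM. *Pdzrn4* stood at 229, 242, 206 and 153 CPM against 101, 138, 76.5 and 72.9 CPM. For *Pdzrn4* the lowest value above the median was higher than the highest value below it. *Adamts17*, a secreted metalloprotease, had a mean log2 ratio of 0.98 ± 0.26 and *Nxph2* of 0.73 ± 0.25. *Tafa2*, *Cntnap3*, *Cacnb4* and *Scn1a*, the last 2 of which encode a calcium and a sodium channel subunit, had smaller mean ratios of 0.72, 0.63, 0.50 and 0.44.

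*Trpm3*, a cation channel, stood at 100, 122, 84.7 and 64.8 CPM in *Mef2c*-rich nuclei against 267, 286, 201 and 229 CPM. *Grin3a*, an NMDA receptor subunit of the somatostatin-lineage list, stood at 8.89, 22.8, 1.97 and 1.38 CPM against 32.4, 54.3, 33.3 and 51.9 CPM, so that no library of one group reached the other. Its values in the *Mef2c*-rich nuclei rest on few transcripts. It was the lowest of the 5 somatostatin-lineage genes described, whose mean log2 ratios ran from −1.17 to 0.22 with a median of −0.20. Nuclei over 2 excitatory transcripts were fewer above the median (8.89%, 10.2%, 9.36% and 18.6%) than below it (10.8%, 18.9%, 13.2% and 31.5%). Without them, *Trpm3* had a mean log2 ratio of −1.58 (−1.25 with all nuclei) and *Grin3a* of −1.25 (−1.17). *Pdzrn4* and *Cadps2* kept 1.05 and 1.22. *Meis2* went from −1.22 to −0.36 and *Rasgef1b* from −1.18 to −0.53, and both then ran in opposite directions between libraries. *Opcml* went from −1.37 to −0.61 and *Mgat4c* from −1.47 to −1.29.

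*Maf*-positive nuclei carried more *Ackr3* and *Ror2* and less *Cntn5* and *Nrp2* than *Maf*-negative nuclei. Of 5735 genes, 0 were at least 2-fold higher with *Maf* in all 4 libraries and 1 (0.0174%) was lower. That gene was *Cntn5*, a contactin of the synaptic adhesion list, at 62.7, 135, 93.5 and 38.2 CPM with *Maf* against 163, 309, 360 and 312 CPM without it. Without the nuclei over 2 excitatory transcripts its mean log2 ratio was −2.0, against −1.62 with all nuclei. *Nrp2*, a semaphorin receptor, had −1.19 (−0.95). *Ephb1* and *Hs3st4*, in contrast, went from −1.33 and −1.34 to −0.26 and 0.04. Higher with *Maf* were *Galnt13* (0.62 ± 0.20), *Tafa5* (0.56 ± 0.14), *Gucy1a1* (0.54 ± 0.19), *Syndig1* (0.52 ± 0.13), *Epb41l4a* (0.52 ± 0.25), *Ror2* (0.50 ± 0.03), *Ackr3* (0.45 ± 0.11) and *Smchd1* (0.31 ± 0.02). *Ackr3* stood at 131, 118, 201 and 147 CPM in *Maf*-positive nuclei against 100, 86.3, 131 and 94.9 CPM.

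At the median of *Maf*, which gave 93 and 108, 313 and 340, 130 and 277, and 110 and 216 nuclei, 0 of 5698 genes were at least 2-fold higher in all 4 libraries and 6 (0.105%) were lower, of which 2, *Marchf1* and *Trpm3*, were so without nuclei over 2 excitatory transcripts. *Sorcs1*, a sorting receptor, had a mean log2 ratio of 0.95 ± 0.56, with 0.54 in its least extreme library. *Marchf1*, a ubiquitin ligase, had a mean log2 ratio of −1.59 ± 0.19 and *Trpm3* of −1.63 ± 0.40. *Reln*, which encodes the secreted protein reelin, stood at 753, 426, 318 and 498 CPM in *Maf*-rich nuclei against 1228, 568, 669 and 980 CPM, and *Grin3a* at 4.30, 24.9, 6.15 and 1.82 CPM against 37.0, 51.2, 23.1 and 43.5 CPM. *Reln* was lower in the *Maf*-rich nuclei of each library. The mean log2 ratios of the 5 somatostatin-lineage genes described ran from −1.04 to 0.07, with a median of −0.20. The nuclei over 2 excitatory transcripts made up 7.53%, 7.67%, 5.38% and 16.4% of the *Maf*-rich and 12.04%, 20.9%, 14.1% and 30.6% of the other nuclei. Without them *Reln* had −0.79 (−0.77), *Grin3a* −1.11 (−1.04), *Marchf1* −1.70 and *Trpm3* −1.66. *Hs3st4* went from −1.81 to −0.97, *Kcnq5* from −1.20 to −0.94 and *Ephb1* from −1.42 to −0.15, the last then running in opposite directions between libraries. *Mef2c* itself stood at 1897, 1946, 1500 and 1649 CPM in *Maf*-rich nuclei against 1670, 1680, 1287 and 1699 CPM, a ratio of 0.14 ± 0.12.

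**Figure D4:**
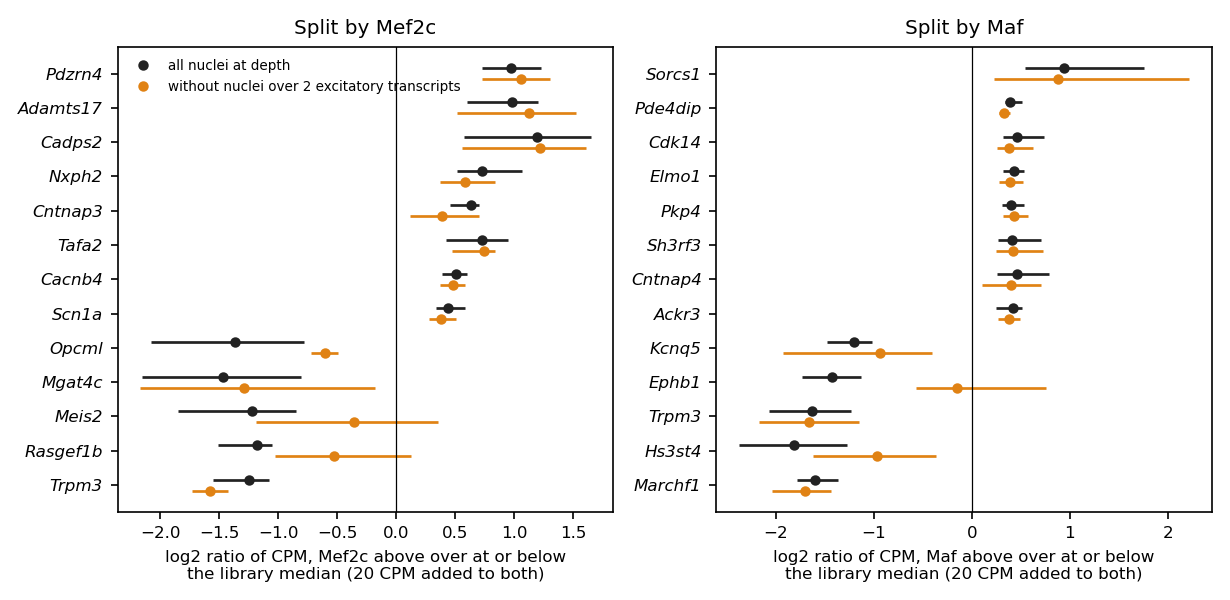
Log2 ratio of CPM (20 CPM added to both) for nuclei above over those at or below the library median of Mef2c (left) and Maf (right). Points are means over the libraries and lines run from the lowest to the highest library. Each gene is drawn with all nuclei at depth and without nuclei over 2 excitatory transcripts. With all nuclei at depth, the line of each gene lies on 1 side of 0. Without the nuclei over 2 excitatory transcripts, the lines of Meis2, Rasgef1b and Ephb1 cross 0. Trpm3 is below 0 in both panels, with mean ratios of −1.25 and −1.63 for all nuclei.

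The share of *Gad* nuclei that were *Sst*-negative MGE nuclei was 54.1% (exact binomial 95% interval 48.9% to 59.2%), 38.8% (36.5% to 41.2%), 28.9% (26.6% to 31.3%) and 65.7% (61.4% to 69.9%). The intervals cover counting error only. The mean was 46.4% ± 10.8 (SD, n = 2) in the KO libraries and 47.3% ± 26.0 (SD, n = 2) in controls, a difference of −0.87 percentage points (exact permutation test, two-sided p = 1). With 2 libraries against 2 the smallest p this test allows is 0.33. The 2 controls spanned both KO values, so no genotype difference in the share could be read from these libraries. As a share of all nuclei in range the members were 3.65%, 5.60%, 6.09% and 6.69%. There the KO values lay below the control values, by 1.76 percentage points on average (exact permutation p = 0.33). Barcodes above the upper limit of the range, which were left out, held 1.35%, 4.37%, 19.2% and 29.4% of each library's transcripts. The limit thus removed more from both controls than from both KO libraries. Whether this set the difference in the share of nuclei in range was not tested. The rest held 3, 88, 209 and 8 nuclei over the *Ebf1* limit, so the makeup of the denominator differed between libraries. Among *Gad* nuclei within the *Ebf1* and cycling limits alone, the members were 61.9%, 45.0%, 39.8% and 71.8%, a difference of −2.35 percentage points (exact permutation p = 1), and the controls again spanned both KO values.

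Neither split gene separated the genotypes beyond what 2 libraries each allow. The *Mef2c*-positive share was 2.72 percentage points higher in KO (exact permutation p = 1) and the *Maf*-positive share 2.98 points lower (exact permutation p = 0.67). The first became −0.41 points without control replicate 1 and the second 0.13 points without control replicate 2, so that both changed sign. Mean *Mef2c* transcripts per thinned nucleus were 8.96 ± 0.11 in KO and 7.59 ± 1.16 in controls (SD, n = 2 each), without overlap, and mean *Maf* transcripts 1.78 ± 0.04 and 2.07 ± 0.22, also without overlap. Both differences had the smallest possible exact permutation p of 0.33. In the fit across all genes, *Mef2c* had a log2 fold change of 0.25 and *Maf* of −0.24, each with an edgeR adjusted p of 0.838.

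Gene levels were compared between genotypes on the summed counts of the members, with edgeR's quasi-likelihood test and Benjamini-Hochberg adjustment over 12440 genes. In such sums, fewer nuclei with a transcript and fewer transcripts per nucleus cannot be told apart. *Dnmt1* (chr9:20817945-20871184, minus strand) stood at 60.8, 47.4, 57.5 and 52.7 CPM, with a log2 fold change of 0.01 (SE 0.16) and an adjusted p of 0.996. Its level thus overlapped between genotypes. Counts per gene include transcripts that lack the deleted exons, so this value does not check the deletion. The libraries also differed in sex within each genotype, with *Xist* in both replicates 1 and Y-linked genes in both replicates 2.

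No gene passed an adjusted p of 0.05 in the *Sst*-negative MGE nuclei with edgeR after the filter on low counts (0 of 12440, which is 0%). Without that filter 172 genes passed, and without 1 library between 2 and 22, the most without KO replicate 1. The smallest adjusted p was 0.138, and 716 genes had an unadjusted p under 0.05, of which 333 were higher and 383 lower in KO. DESeq2 on the same sums called 6 genes, *Cmss1*, *Alcam*, *Tmem132c*, *Glis3*, *Tll1* and *Tmem181c-ps*, and had 198 at an unadjusted p under 0.05. Groups of 2 libraries did not overlap for 4618 genes (37.1%), 1593 (12.8%) higher and 3025 (24.3%) lower in KO, on CPM of library totals. This split moved with the scaling. With the TMM factors of the fit it was 2203 (17.7%) higher and 2386 (19.2%) lower, and with RLE factors 2315 (18.6%) and 2274 (18.3%), so no excess of lower genes is read from it. In the rest, 0 of 14423 genes passed with edgeR (smallest adjusted p 0.945, 642 genes at an unadjusted p under 0.05). The test of whether the genotype difference was the same in members and rest called 0 of 13856 genes (325 at an unadjusted p under 0.05).

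The genes with the smallest p, none of which passed with edgeR on all 4 libraries by genotype alone after the filter on low counts, were led by *Cmss1* and *Alcam*. Without that filter 13 of the 16 passed, with edgeR adjusted p-values of 7.45e-19 for *Cmss1* and 3.29e-08 for *Alcam*, and *Eml6*, *Mex3c* and *Rnf146* did not. That fit gave its smallest adjusted p-values to genes high in 1 library, *Arhgap6* (2.52, 1.61, 128 and 0.739 CPM) and *Tafa1* (6.84, 281, 30.2 and 5.32 CPM). Of the 172 genes it called, the groups did not overlap for 94. Its p-values are therefore not taken as evidence of a genotype difference. *Cmss1* passed without control replicate 1 (edgeR adjusted p 0.0135) and without KO replicate 1 (0.0428), and *Alcam* without KO replicate 1 (edgeR adjusted p 0.0405). *Cmss1* (chr16:57122363-57427253, minus strand) stood at 215, 239, 498 and 624 CPM, a log2 fold change of −1.25 (SE 0.14) with an edgeR adjusted p of 0.138. Both KO values lay below both control values. *Cmss1* overlaps *Filip1l* on the opposite strand, and in the rest its log2 fold change was nearly the same, −1.26 (edgeR adjusted p 0.945). *Alcam* (chr16:52069359-52274437, minus strand), an adhesion molecule of the immunoglobulin family on growing axons, stood at 129, 136, 66.0 and 73.3 CPM, a log2 fold change of 0.98 (SE 0.11, edgeR adjusted p 0.138). In the rest *Alcam* had a log2 fold change of 0.45. *Tmem132c* stood at 164, 182, 106 and 91.9 CPM (0.86, SE 0.12, edgeR adjusted p 0.284), against 1.09 in the rest. Within batch 1, that is without control replicate 2, the log2 fold changes were −1.09 for *Cmss1*, 1.05 for *Alcam* and 0.76 for *Tmem132c*, now against 1 control library.

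*Stxbp6*, a syntaxin-binding protein, stood at 43.6, 45.8, 24.8 and 23.2 CPM (edgeR adjusted p 0.428). The other genes above the controls were *Camk4*, *Ppm1h*, *Dock10*, *Eml6* and *Slc24a3*, with log2 fold changes between 0.49 and 0.93 and an edgeR adjusted p of 0.821 each. *Camk4*, a calcium-dependent kinase that excitatory neurons also express, had a log2 fold change of 0.10 (0.72 with all nuclei) when nuclei over 2 excitatory transcripts were left out. Below the controls were *Ptma*, encoding prothymosin alpha, at 14.8, 14.6, 26.8 and 41.2 CPM, and *H3f3b*, a histone H3.3 gene, at 13.3, 14.6, 27.2 and 25.1 CPM. *Ptma* and *H3f3b* had similar values in the rest, with log2 fold changes of −1.16 and −0.72 there against −1.17 and −0.84 in the members. *Ankrd50*, *Pgbd5*, *Pou3f3*, *Mex3c* and *Rnf146* lay between −0.75 and −0.60.

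**Figure D5:**
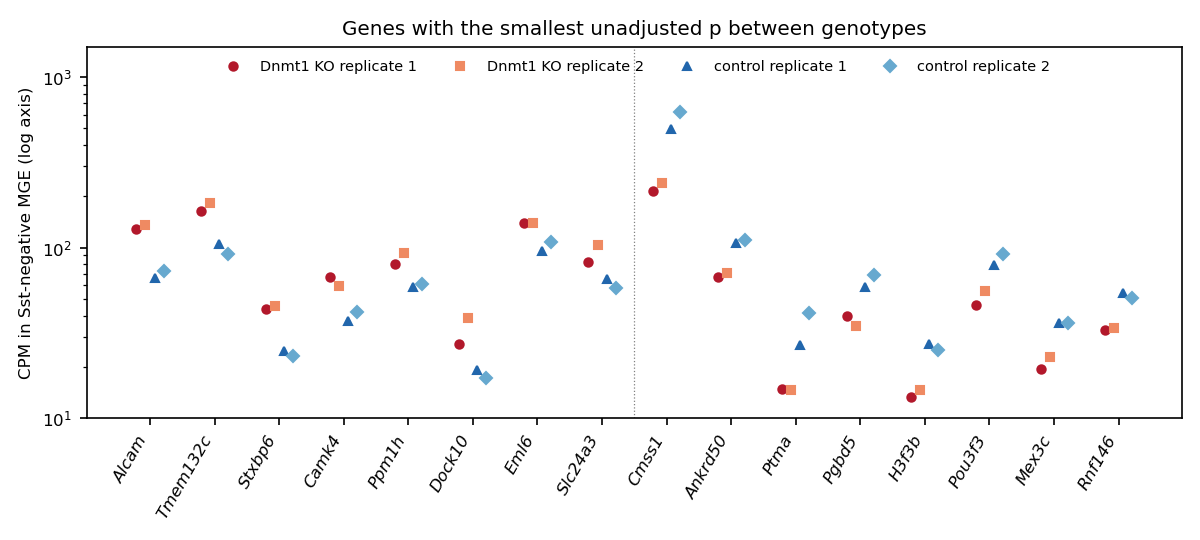
Summed level (CPM, log axis) in Sst-negative MGE nuclei of the 16 genes with the smallest p in each direction, with 1 point per library. KO and control points do not overlap for any of the 16, a condition of their choice, and none passed an edgeR adjusted p of 0.05 after the filter on low counts (13 did without it).

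By gene group, 0 genes of any list passed in either direction with edgeR after the filter on low counts. Of 19 MGE and interneuron transcription factors, 5 had a positive and 14 a negative log2 fold change (median −0.15, against −0.01 over all genes), and for 6 of the 19 the groups did not overlap. This share (31.6%), like that of the synaptic adhesion genes (23.8%), of the GABA genes and of the migration genes below (33.3% each), was under the 37.1% over all genes. Of the 21 tested candidate genes of the study, a list chosen on these samples, 9 (42.9%) did not overlap (11 positive, 10 negative, median 0.02). Of 6 radial glia markers 3 (50%) did not (2 positive, 4 negative, median −0.30). These shares lay near the 37.1% over all genes for lists of this size. With RLE factors that of the candidate genes was 38.1%, against 36.9% over all genes. Neither share is read as a result about its list. *Sp9*, a transcription factor of ganglionic eminence precursors, stood at 42.8, 47.4, 78.1 and 51.7 CPM. *Sox6* and *Satb1* overlapped between genotypes, with log2 fold changes of −0.14 and 0.14. Of 21 synaptic adhesion genes, 14 had a positive and 7 a negative log2 fold change (median 0.20), and 5 did not overlap. *Nxph2* stood at 420, 402, 354 and 344 CPM (0.29, SE 0.11, edgeR adjusted p 0.838). Of 15 genes of GABA transport and reception, 12 were positive and 3 negative (median 0.09), and 5 did not overlap. *Slc12a2*, the chloride importer NKCC1, stood at 62.3, 63.8, 54.1 and 52.0 CPM.

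Of 33 migration and guidance genes, 17 had a positive and 16 a negative log2 fold change (median 0.02), and 11 did not overlap, no larger a share than over all genes. *Cxcr4*, the CXCL12 receptor that keeps interneurons in their migratory streams, stood at 18.0, 20.2, 29.1 and 39.0 CPM, with a log2 fold change of −0.78 (SE 0.19, edgeR adjusted p 0.821). *Ackr3* stood at 107, 86.8, 159 and 115 CPM (−0.46). *Dcc*, a netrin receptor, stood at 2301, 1729, 1617 and 1532 CPM (0.41), and *Nrg3*, an ERBB4 ligand, at 5592, 5570, 4154 and 4611 CPM (0.40). Both KO values of *Cxcr4* and *Ackr3* lay below both control values, and both of *Dcc* and *Nrg3* above. *Efnb2*, a guidance ligand the study followed in *Sst* interneurons, stood at 285, 277, 335 and 304 CPM (−0.14, SE 0.11, edgeR adjusted p 0.871). Of 10 DNA methylation genes 6 were positive and 4 negative (median 0.00). *Dnmt3a*, a de novo methyltransferase, stood at 59.7, 61.3, 62.4 and 71.7 CPM. Of 12 excitatory markers, 6 were positive and 6 negative with a median of 0.04.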

How the data were processed

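Nuclei were profiled by the authors with split-pool barcoding (Parse Evercode), and each deposited matrix holds transcript counts (unique molecular identifiers) per barcode and gene, unfiltered and not normalised. The labels name mm39 (GRCm39), R 4.4.1 and Seurat 5.0.1.9001. Frozen tissue was used, so counts are nuclear and favour long genes with introns. Barcodes with 1500 to 60000 transcripts were kept; totals over the members were 2778690, 8717650, 5290229 and 6768369 counts (KO 1, KO 2, control 1, control 2). Minimum thresholds in transcripts act more strictly on shallow nuclei, and upper limits on deep ones.

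The members and gene lists were chosen with earlier results of these data known. The library was the unit. Member counts were summed per library and tested with edgeR 4.0.16 in R 4.3.3 (TMM, filterByExpr, quasi-likelihood, genotype only), leaving out the 7 genes of the rule. Splits and comparisons with the rest carry no test; genes under 10 CPM (20 CPM in the splits) in the higher group were left out. Named genes were, by rule, the 15 highest and 8 lowest against the rest (at least 50 CPM), the 8 highest and 5 lowest per split (at least 100 CPM), and the 8 smallest p per direction between genotypes (at least 20 CPM, no overlap), beside list genes. Doublets were called with Scrublet in scanpy 1.11.5 (expected rate 5%) and kept. Shares used Clopper-Pearson intervals; permutation tests were exact (scipy 1.17.1). Alternatives included DESeq2 1.42.0, other scalings, limits and depths, doublets left out, and each library left out; those by median split, by mean transcripts and by scaled overlap were chosen after seeing the data. Scripts were tested on simulated counts. Coordinates are from GENCODE, and 56323 of 56884 gene rows matched by identifier. Each library is 1 embryo. Results for some genes are not reported here.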

Additional observations from a re-analysis of the deposited data

How the results depend on the processing

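Between genotypes, the 0 genes called in the members stayed at 0 with RLE factors, library totals, doublets or nuclei over 2 excitatory transcripts left out, stricter, looser or thinned rules and a range on mapped reads. They became 6 with DESeq2, 172 without the expression filter (153 of which had also been tested with it), 2 with batch as a term (*Arhgap6* and *Sfta3-ps*, both high in control replicate 1 only), and between 2 and 22 without 1 library (22 without KO replicate 1, 2 without KO replicate 2, 5 without either control). The causes were not tested. With the replicate number as a block, 2 genes passed (*Cmss1* and *Zfp804b*, edgeR adjusted p 0.0145 each), and as the number coincided with embryo sex this is also a sex block; deviations of same-numbered libraries correlated at 0.014, with only 2 pairs, so the numbers were not taken as pairing. The test of the genotype difference between members and rest went from 0 to 89 without the filter and ran from 0 to 18 without 1 library (18 without KO replicate 2). The share difference of −0.87 percentage points became 3.55 with 1 or more *Lhx6* transcripts and ran from −19.3 to 17.5 without 1 library (6.75 without KO replicate 2). The *Mef2c*-positive difference ran from −0.41 to 5.86 and the *Maf*-positive from −6.09 to 0.13. Against the rest, genes 2-fold higher in all 4 libraries were 69 (24) with a rest of no *Lhx6*, and those lower 100 (282) with 20 CPM added. In the *Mef2c* split, the 1 higher gene became 0 at the median, at 1500 transcripts or without nuclei over 2 excitatory transcripts, and 2 with 5 CPM added. Its 0 lower genes became 2 at the median (1 without those nuclei) and 4 with 5 CPM. In the *Maf* split, the 1 lower gene became 6 at the median (2 without those nuclei), 4 with 5 CPM and 11 for 2 or more transcripts against 0. Thinning to 5000 transcripts left *Maf* near 2 per nucleus, which limits its split.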

Other observations

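The genes that varied most between *Sst*-negative MGE nuclei, named after their values were seen, were neither *Mef2c* nor *Maf*. Among 1502 genes with at least 0.5 transcripts per thinned nucleus in all 4 libraries, the median of the lowest ratio of variance to mean over libraries was 1.25. *Rbfox1*, a splicing regulator of neurons, had the highest, 26.5, with means of 32.6, 23.4, 18.5 and 31.7 transcripts per nucleus (KO 1, KO 2, control 1, control 2). *Nrg1*, whose symbol stands on more than 1 gene row, had 22.1 on the row ranked, and *Opcml*, a cell adhesion molecule, 20.5. Next came *Galntl6* with 19.4, *Erbb4* with 19.2, *Ptprt* with 19.0, *Tenm2*, a teneurin, with 18.1, *Cntnap2* with 17.8 and *Nxph1* with 17.6. *Mef2c* ranked 135 and *Maf* 532. The ratio grows with a gene's mean, so the order favours genes with many nuclear transcripts. Without nuclei over 2 excitatory transcripts (1472 genes), *Rbfox1* kept the first place with 25.1, followed by *Galntl6*, *Ptprt*, *Tenm2*, *Negr1*, *Kirrel3* and *Nrg3*, and *Nrg1* and *Opcml* were no longer among the first 9.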
